A study of Mus musculus with 155 samples.

Results

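The genes of Polycomb repressive complex 1 (PRC1) measured here were Ring1, Rnf2, Cbx2, Cbx7, Cbx8, Bmi1, Pcgf6, Phc1 and Kdm2b. These 9 genes were taken by name from the gene count tables, which held 55471 genes, and all 9 were present in every table. The cells were KH2 mouse embryonic stem cells (ESCs), which carried a doxycycline (Dox)-inducible extra copy of SNAP- and HA-tagged histone H3.3 inserted at a fixed locus by Flp recombination. The extra copy was wild-type (WT-H3.3), or had lysine 27 replaced by methionine (H3.3K27M) or leucine (H3.3K27L). Each line was grown from hygromycin-selected colonies, and how many clones made up a line was not given in the sources used here.

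Dox was added to all 3 lines, so that the WT-H3.3 libraries also came from induced cells with a tagged transgene beside the endogenous H3.3 genes. RNA was sequenced in 42 of the 155 samples of the study, and the others were not analysed here. In ESCs, kept with serum, LIF and 2i (kinase inhibitors), each line was sampled after 4, 8, 24 and 72 h of 1 uM Dox with 2 libraries per time, and so was the WT-H3.3 line treated with GSK343, an inhibitor of the PRC2 methyltransferase (32 libraries). Retinoic acid (RA)-treated cells were in medium without LIF and 2i. They had 1 library for each of the 3 lines at 24 h and at 72 h of Dox (6 libraries). Oligodendrocyte progenitor cells (OPCs) were derived from the ESCs through embryoid bodies given RA and purmorphamine, and were then grown in OPC medium. So the OPCs had received RA as well. They had 1 library each for WT-H3.3 and H3.3K27M at 24 h and at 72 h of Dox (4 libraries).

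PRC1 is a family of chromatin complexes that silence genes. The catalytic core is a RING ubiquitin ligase, RING1 or RNF2, paired with a PCGF protein, and it places ubiquitin on histone H2A. Canonical complexes also hold a CBX protein, whose chromodomain reads the methylated lysine 27 of histone H3 placed by PRC2, and a PHC protein, which polymerizes and compacts chromatin. Variant complexes lack CBX and carry RYBP or YAF2, and KDM2B brings a variant complex to unmethylated CpG islands. In ESCs CBX7 is the best known CBX protein, and CBX2 and CBX8 are known for roles in differentiating cells.

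Library totals ranged from 68378 to 21161392 counts in ESCs, from 2239137 to 22269533 in RA-treated cells and from 7499258 to 12387113 in OPCs. The lowest total belonged to H3.3K27L ESCs at 72 h, replicate 2, where 1 count equals 14.6 CPM (counts scaled to a library total of 1000000), and the next lowest ESC library had 1247934 counts. The 9 ESC markers summed to 2400 to 5410 CPM in ESCs and to 169 to 553 CPM in RA-treated cells, and 4 of them (Pou5f1, Dppa3, Dppa5a and Fgf4) were at 0 in all OPC libraries. The 7 RA response genes summed to at most 10.1 CPM in ESCs and to 653 to 1170 CPM in RA-treated cells. The 7 OPC markers summed to 480 to 1740 CPM in OPCs, against 14.6 to 55.8 CPM in ESCs. Neural progenitor markers summed to 2910 to 4040 CPM in the same OPC libraries (25.9 to 93.7 in ESCs). Astrocyte markers summed to 1050 to 1620 CPM there (29.2 to 81.8 in ESCs) and fibroblast markers to 21.9 to 603 CPM (3.97 to 21.4). Extraembryonic endoderm markers summed to 601 to 6730 CPM in RA-treated cells (37.5 to 146 in ESCs). Neuron markers were not above their ESC range at either stage. The part of these cell types in the changes between stages was not tested. In bulk RNA, fewer cells of a type and less RNA per cell cannot be told apart.

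Promoter sequences are shown for the 4 subunit genes that passed the test between RA-treated cells and ESCs, of which Bmi1 and Cbx8 rose and Pcgf6 and Phc1 fell. They are RefSeq windows on the build GRCm38.p6, from 250 bases before to 50 bases after an annotated start, read 5′ to 3′ on the gene's strand, and capitals mark CG dinucleotides, to which KDM2B binds when they are unmethylated. A window was found for 8 of the 9 genes. The windows lie at chr2:18676768-18677067 (plus strand) for Bmi1, chr11:119040864-119041163 (minus strand) for Cbx8, chr19:47050857-47051156 (minus strand) for Pcgf6 and chr6:122340178-122340477 (minus strand) for Phc1.
Bmi1: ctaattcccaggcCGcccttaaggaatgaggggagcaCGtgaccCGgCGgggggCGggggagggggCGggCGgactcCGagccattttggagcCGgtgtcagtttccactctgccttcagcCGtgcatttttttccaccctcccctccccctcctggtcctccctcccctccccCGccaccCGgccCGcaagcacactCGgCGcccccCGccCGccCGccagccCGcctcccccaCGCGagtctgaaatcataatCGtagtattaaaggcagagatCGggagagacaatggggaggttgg
Cbx8: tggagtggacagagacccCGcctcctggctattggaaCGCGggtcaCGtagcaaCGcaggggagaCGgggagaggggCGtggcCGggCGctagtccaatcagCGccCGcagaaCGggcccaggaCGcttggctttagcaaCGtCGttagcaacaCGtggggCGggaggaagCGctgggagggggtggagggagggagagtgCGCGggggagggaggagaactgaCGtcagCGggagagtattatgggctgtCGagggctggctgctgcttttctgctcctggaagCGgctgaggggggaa
Pcgf6: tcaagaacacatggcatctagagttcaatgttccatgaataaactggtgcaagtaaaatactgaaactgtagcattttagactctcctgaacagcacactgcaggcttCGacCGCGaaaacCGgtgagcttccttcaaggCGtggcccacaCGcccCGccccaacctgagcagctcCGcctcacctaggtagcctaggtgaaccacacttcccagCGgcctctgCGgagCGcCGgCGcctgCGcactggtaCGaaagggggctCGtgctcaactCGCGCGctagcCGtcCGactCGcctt
Phc1: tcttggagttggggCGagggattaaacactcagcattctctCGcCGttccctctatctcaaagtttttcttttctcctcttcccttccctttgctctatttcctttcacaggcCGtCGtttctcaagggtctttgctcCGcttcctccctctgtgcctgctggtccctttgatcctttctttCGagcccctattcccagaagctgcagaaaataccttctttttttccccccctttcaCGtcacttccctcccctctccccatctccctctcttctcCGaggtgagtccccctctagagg

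Over all 32851 windows the median was 7 CG dinucleotides. The Cbx8 window held 24, the Bmi1 window 23 and the Pcgf6 window 22, counts that 20%, 21.5% and 23.1% of all windows reached. The Phc1 window held 9, which 45.8% of windows reached. Bmi1 and Cbx8, which rose, and Pcgf6, which fell, thus had like counts of CG. The palindrome CACGTG, the core E-box, was present in the Bmi1 window 215 bases before the start and in the Cbx8 window 98 bases before the start, and in 7.15% of all windows. AGGTCA, letters bound by RA receptors and searched on both strands, was found in no window of the subunit genes and in 16.3% of all windows.

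The first question was whether mutant H3.3 or inhibition of PRC2 changed the PRC1 genes in undifferentiated ESCs. Each difference is a log2 fold change with its standard error (SE) from edgeR, and a call required an adjusted p under 0.05 together with more than a 2-fold change. No subunit gene was called for either mutant or for GSK343. For H3.3K27M against WT-H3.3 over all Dox times, 0.0142% of all genes tested were called, for H3.3K27L 3.46%, and for GSK343 0%. With GSK343, edgeR called 0 of the 14076 genes (621 at an unadjusted p under 0.05) and DESeq2 also called 0.

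In the 8 WT-H3.3 ESC libraries the catalytic subunit Rnf2 lay between 143 and 184 CPM (median 172), and its paralog Ring1 between 6.48 and 11.4 CPM (median 10.6). Phc1, the polyhomeotic subunit, ranged from 285 to 424 CPM (median 306). Cbx7 ranged from 130 to 211 CPM (median 157), Cbx2 from 37.2 to 50.4 CPM (median 44.3) and Cbx8 from 2.05 to 5.54 CPM (median 3.24). These CPM are levels per library that are not scaled by gene length, so they are compared only within a gene. Among the PCGF genes, Bmi1 (the PCGF4 gene) lay between 22.8 and 27.8 CPM (median 27) and Pcgf6, the PCGF of a variant complex, between 99.3 and 126 CPM (median 106). Kdm2b ranged from 73.0 to 140 CPM (median 105). Over the 31 ESC libraries left when the lowest one is set aside, the range from lowest to highest stayed within 223 to 424 CPM for Phc1, 140 to 224 CPM for Rnf2, 125 to 211 CPM for Cbx7 and 82.1 to 130 CPM for Pcgf6.

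**Figure D1:**
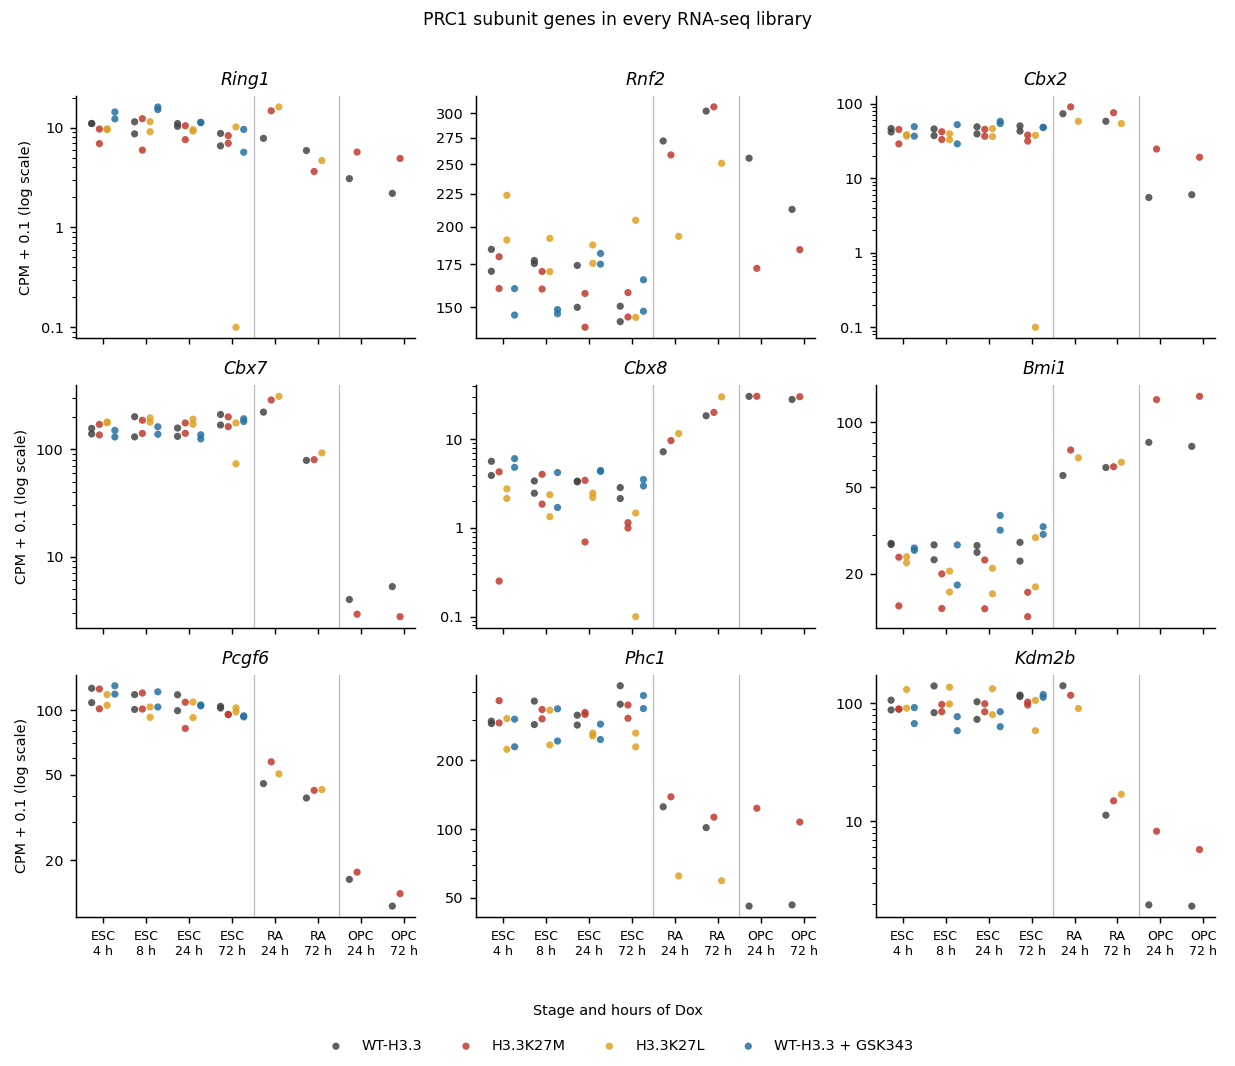
CPM plus 0.1 of each PRC1 subunit gene on a log axis, with 1 point per library, by stage and hours of Dox on the horizontal axis and line or treatment by colour. Cbx8 and Bmi1 lie higher and Pcgf6 and Phc1 lower in every RA and OPC library than in all ESC libraries, while Cbx7 and Kdm2b at 24 h of RA lie near or above their ESC level and fall at 72 h.

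Bmi1 gave the lowest adjusted p among the subunit genes with H3.3K27M in ESCs. At 4 h of Dox its level was 27.2 and 27.5 CPM in WT-H3.3 and 23.7 and 14.1 CPM in H3.3K27M libraries, and at 8 h it was 23.1 and 27.05 against 19.9 and 13.7 CPM. At 24 h the values were 26.9 and 25.0 against 23.0 and 13.7 CPM, and at 72 h 27.8 and 22.8 against 16.3 and 12.6 CPM. At each time both H3.3K27M libraries lay below both WT-H3.3 libraries, and replicate 2 of H3.3K27M was the lower one each time. Over all times the difference was -0.60 (SE 0.13) on the log2 scale with an adjusted p of 0.131. With the replicate number as a block, which pairs these lines, the difference was -0.62 with an adjusted p of 0.0299 and all genes called rose from 2 to 24. The range over the 8 H3.3K27M libraries (12.6 to 23.7 CPM) still overlapped that of the 8 WT-H3.3 libraries.

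Cbx8 was low in ESCs, and its differences there rest on few counts. It ranged from 0.152 to 4.19 CPM in H3.3K27M and from 0 to 2.66 CPM in H3.3K27L, with log2 differences from WT-H3.3 of -0.75 (SE 0.35, adjusted p 0.406) and -0.74 (SE 0.37, adjusted p 0.236). Neither passed the test, and the H3.3K27M library with 0.152 CPM held 1 count of the gene. The remaining subunit genes differed between H3.3K27M and WT-H3.3 by 0.23 or less in either direction, Cbx2 by -0.23 (SE 0.14). Limited to 24 and 72 h, edgeR called 0 genes with H3.3K27M (590 at an unadjusted p under 0.05, and 0 by DESeq2), so no subunit gene passed there either.

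With H3.3K27L, Phc1 was the subunit gene nearest to the threshold. Its level ran from 223 to 331 CPM in H3.3K27L ESCs (median 259), from 285 to 424 CPM in WT-H3.3 (median 306) and from 292 to 365 CPM in H3.3K27M (median 321). The difference from WT-H3.3 was -0.32 (SE 0.10) with an adjusted p of 0.0489, which 8.11% of all genes reached, and it was below the 2-fold threshold. H3.3K27M exceeded H3.3K27L by 0.32 (SE 0.10, adjusted p 0.0412), which 11.1% of all genes reached. These p-values lie close to 0.05 and rose above it in 30 of 41 alternative fits for the first difference (range 0.02 to 0.179, the highest without H3.3K27L 72 h replicate 1) and in 19 of 41 for the second (range 0.0172 to 0.162). At 24 and 72 h alone, the H3.3K27L libraries (229 to 263 CPM) all lay below the WT-H3.3 libraries (285 to 424 CPM), as for 6.2% of all genes in either direction, and the difference of -0.46 (SE 0.14) had an adjusted p of 0.155, in a comparison that called 0.547% of all genes. Bmi1 differed by -0.41 (SE 0.14) between H3.3K27L and WT-H3.3, with an adjusted p of 0.0782.

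Under GSK343 the largest difference over all times was that of Kdm2b, at -0.33 (SE 0.14, adjusted p 0.975). Bmi1 at 24 and 72 h was 37.0, 31.6, 32.8 and 30.3 CPM with GSK343 and 22.8 to 27.8 CPM without it. These groups did not overlap, as for 1.68% of all genes, and the difference of 0.34 (SE 0.19) had an adjusted p of 1. In the WT-H3.3 line no subunit gene passed between the libraries of 24 and 72 h of Dox and those of 4 and 8 h, where 0.071% of all genes were called.

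**Figure D2:**
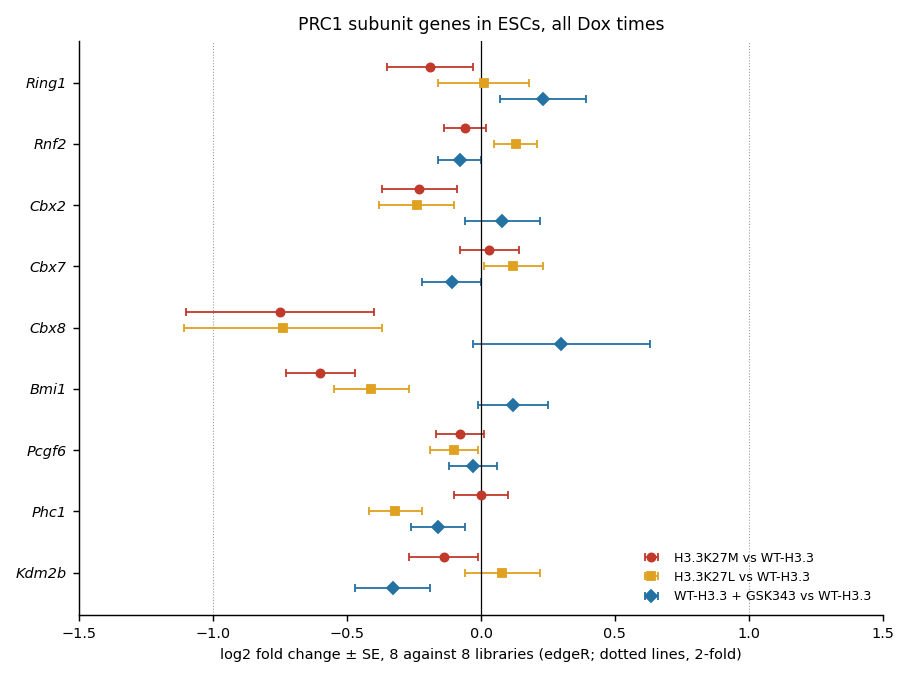
Log2 fold change in ESCs over all Dox times for each PRC1 subunit gene with H3.3K27M, H3.3K27L or GSK343 against WT-H3.3; bars are 1 SE from edgeR. No difference passed both thresholds, and the largest, those of Cbx8 with both mutants, rest on few counts.

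The next comparison asked how the subunit genes differed between RA-treated cells and ESCs of the same lines and Dox times (6 against 12 libraries). Stage, library batch and possibly library kit cannot be told apart here, nor in the comparisons of OPCs with ESCs or with RA-treated cells. Of the 9 genes, 2 were called higher and 2 lower, against 45.9% of all genes called in either direction (25.8% higher and 20.1% lower). The 4 genes were Cbx8 and Bmi1, which rose, and Pcgf6 and Phc1, which fell. The groups did not overlap for these 4 and for Cbx2, 5 of 9 genes, against 21.3% of all genes. The median log2 change of all genes was 0.04 here and was 0.29 with the size factors of DESeq2, so changes of about that size depend on the scaling, but no subunit gene that passed the adjusted p turned its direction.

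Cbx8, a CBX protein of canonical PRC1, was at 7.13, 9.57 and 11.5 CPM at 24 h and 18.3, 19.97 and 30.0 CPM at 72 h in the libraries with WT, K27M and K27L H3.3. In the 12 ESC libraries it ranged from 0 to 3.34 CPM (median 2.08). Every RA library lay above every ESC library, with a log2 change of 2.80 (SE 0.31, adjusted p 2.88e-07), or 6.96-fold. Bmi1, a core PCGF subunit, ranged from 56.6 to 74.2 CPM (median 63.7) in RA-treated cells and from 12.6 to 29.2 CPM (median 21.9) in ESCs. It rose by 1.57 (SE 0.13, adjusted p 4.74e-09), or 2.97-fold, and its RA libraries of 72 and 24 h differed by 0.17 (adjusted p 0.313).

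Pcgf6 ranged from 38.9 to 57.3 CPM in RA-treated cells and from 82.1 to 118 CPM in ESCs, a change of -1.25 (SE 0.13, adjusted p 1.08e-07). Phc1 was 125, 138 and 62.3 CPM at 24 h and 101.4, 113 and 59.4 CPM at 72 h in the 3 lines, against 229 to 424 CPM in ESCs. Its change was -1.80 (SE 0.12, adjusted p 4.3e-10), and both H3.3K27L libraries were the lowest. Rnf2 (0.59, SE 0.12, adjusted p 0.000203) and Cbx2 (0.63, SE 0.18, adjusted p 0.00462) passed the adjusted p below the 2-fold threshold. Ring1 (-0.14), Cbx7 (-0.04) and Kdm2b (-0.74, SE 0.43, adjusted p 0.138) did not pass.

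Between the RA libraries of 24 and 72 h of Dox, about the same share of these genes as of all genes was called. Comparing the 3 libraries of 72 h with the 3 of 24 h, where 42.2% of all genes were called (19.7% higher and 22.5% lower) and 67.3% did not overlap, 1 subunit gene was called higher and 3 lower. Dox was added 24 h after the onset of RA in the 72 h libraries. The methods give 4 days in RA for the differentiation in general, and no separate time in RA for the 24 h libraries. The samples of 24 h were also numbered apart from those of 72 h in the study's sample list. The correlation of CPM with exonic length, given below, differed between them as well. So Dox time, time in RA and possibly library batch or library kit cannot be told apart. The part of batch or kit in the differences between times was not tested.

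Markers of cell types also differed between these times. The 7 neural progenitor markers summed to 167 to 468 CPM at 24 h and to 62.7 to 126 CPM at 72 h, and the 8 fibroblast markers to 264 to 431 CPM and to 51.1 to 161 CPM, and of these only Lum, a fibroblast marker, was at 0 in all libraries of a time (72 h). The 7 RA response genes (653 to 694 against 711 to 1170 CPM) and the 6 astrocyte markers (33.1 to 42.3 against 44.1 to 67.9 CPM) were higher at 72 h without overlap, while the ESC, OPC, neuron and extraembryonic endoderm markers overlapped. Their part in the differences between times was not tested.

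Kdm2b, which targets a variant PRC1 to CpG islands, was 141, 117 and 90.3 CPM at 24 h and 11.2, 14.8 and 16.8 CPM at 72 h. It fell by 2.73 (SE 0.21, adjusted p 2.44e-07). Cbx7 was 222, 288 and 311 CPM at 24 h and 78.6, 79.9 and 92.4 CPM at 72 h, and fell by 1.46 (SE 0.14, adjusted p 1.45e-06). In ESCs Kdm2b had a range of 58.5 to 133 CPM and Cbx7 of 73.1 to 211 CPM in the 12 matched libraries, so at 24 h Cbx7 was above them and at 72 h Kdm2b was below them. Ring1 was 7.72, 14.7 and 16.1 CPM at 24 h and 5.81, 3.54 and 4.59 CPM at 72 h (-1.26, SE 0.33, adjusted p 0.00465), and that call ended without either H3.3K27M library (adjusted p 0.0605 and 0.0554). Its 72 h levels rest on 11 to 15 counts. Cbx8 was the 1 gene called higher at 72 h (1.49, SE 0.20, adjusted p 3.64e-05). With library totals in place of TMM, 34% of all called genes were higher at 72 h, against 46.6%, while the same number of subunit genes was called.

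The same difference in time was tested against the ESC libraries of 24 and 72 h, a test added after the data were seen, in which 42.4% of all genes were called (15.4% higher and 27% lower). Kdm2b (-3.11, adjusted p 1.18e-08), Cbx7 (-1.83, adjusted p 1.31e-06), Ring1 (-1.22, adjusted p 0.00947) and Cbx8 (1.82, adjusted p 0.00331) passed, so the change from ESCs to RA differed between the times for these 4. That is about the share of all genes called. For Ring1 this was lost without the H3.3K27M RA library of 72 h (adjusted p 0.0511). Within 24 h libraries, Cbx7 differed from ESCs by 0.64 (adjusted p 0.00601) and Kdm2b by 0.15 (adjusted p 0.566). Within 72 h libraries, Cbx7 fell by 1.12 (adjusted p 3.22e-05) and Kdm2b by 2.95 (adjusted p 2.01e-10). Bmi1, Pcgf6, Phc1 and Cbx8 were called at each time alone, Bmi1 at 1.56 and 1.71 and Phc1 at -1.62 and -1.87. Across 10544 genes within a library, the rank correlation of CPM with exonic length was 0.21 to 0.276 in RA libraries of 24 h and 0.00318 to 0.018 in those of 72 h. It was -0.0639 to 0.151 in the 31 ESC libraries without the lowest and 0.0307 to 0.0393 in OPCs. Its part in the differences between times and between stages was not tested.

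**Figure D3:**
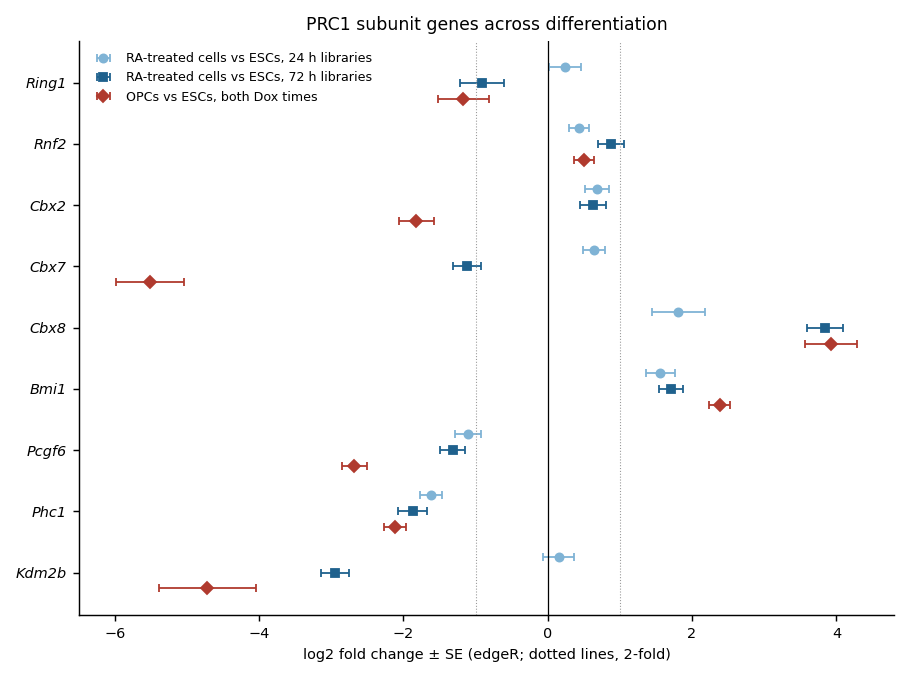
Log2 fold change of each PRC1 subunit gene in RA-treated cells against ESCs, shown apart for 24 h and 72 h libraries, and in OPCs against ESCs at both Dox times; bars are 1 SE from edgeR. Cbx8 and Bmi1 are above 0 in all 3 comparisons, while Cbx7 and Kdm2b are above 0 in RA-treated cells at 24 h and reach -5.51 and -4.72 in OPCs.

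Between the lines within RA-treated cells (2 against 2 libraries, the 2 Dox times serving as replicates), edgeR called 0 of 12265 genes for either mutant, with 15 genes at an unadjusted p under 0.05 for H3.3K27M and 187 for H3.3K27L, where DESeq2 called 0 and 5. No subunit gene passed. The error of these fits includes the difference between Dox times, between which 42.2% of all genes were called. Their common dispersion, the spread that edgeR estimates between libraries of a group, was 0.459, and 0.0177 with Dox time as a term. A difference between lines can thus be missed in these fits. Phc1 was 62.3 and 59.4 CPM with H3.3K27L and 125 and 101.4 CPM with WT-H3.3, a difference of -0.88 (SE 0.32, adjusted p 1). Its groups did not overlap, as for 17.6% of all genes. With Dox time as a term its difference was -0.89 with an adjusted p of 0.00923, in a fit that called 451 genes. Its adjusted p thus depended on that term, and the difference stayed under 2-fold in both fits. The 7 extraembryonic endoderm markers, of which none was at 0 in a line, summed to 1820 and 6730 CPM with H3.3K27L, 689 and 3420 CPM with WT-H3.3 and 601 and 994 CPM with H3.3K27M, and their part in the Phc1 difference was not tested. The change from ESCs to RA-treated cells differed from that of WT-H3.3 for no subunit gene in either mutant (0 of all genes, with 232 and 569 at an unadjusted p under 0.05). DESeq2 called 1 gene for H3.3K27M and 0 for H3.3K27L. These fits take both Dox times as replicates. With a term for Dox time in each stage, an alternative added after the data were seen, 0 and 37 genes were called and again no subunit gene, with the lowest adjusted p at 0.278 (Cbx8 with H3.3K27L, 1.38, SE 0.49).

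The OPC stage was compared in the same way. Against the 8 ESC libraries of the same lines and times, 8 of the 9 genes were called in the 4 OPC libraries, 2 higher and 6 lower, where 66% of all genes were called (29.3% higher and 36.6% lower) and the median change of all genes was -0.22 (0.16 with DESeq2 size factors). The number called was 8 within 24 h and within 72 h libraries and 7 with DESeq2. The ESC libraries are shared with the comparison of RA-treated cells. The 8 called genes also did not overlap between groups, against 65.2% of all genes.

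Among the CBX genes, Cbx7 fell furthest, from 132 to 211 CPM in ESCs to 3.88, 5.14, 2.80 and 2.65 CPM in OPCs (WT-H3.3 at 24 and 72 h, then H3.3K27M at 24 and 72 h). Its log2 change was -5.51 (SE 0.47, adjusted p 5.82e-09), or 45.5-fold lower. Cbx8 was between 28.0 and 30.4 CPM in OPCs and between 0.595 and 3.34 CPM in ESCs, 3.93 higher (SE 0.36, adjusted p 1.57e-08), or 15.2-fold. Cbx2 fell by 1.82 (SE 0.24, adjusted p 1.73e-06), although it had been higher in RA-treated cells. Its OPC levels were 5.41 and 5.91 CPM with WT-H3.3 and 24.5 and 19.0 CPM with H3.3K27M.

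The PCGF genes moved in opposite directions in OPCs. Bmi1 was 80.6 and 77.2 CPM with WT-H3.3 and 127 and 131 CPM with H3.3K27M, against 12.6 to 27.8 CPM in ESCs, and rose by 2.38 (SE 0.15, adjusted p 1.11e-10). Pcgf6 was 16.2, 12.1, 17.5 and 13.9 CPM in the same order, against 82.1 to 118 CPM, and fell by 2.68 (SE 0.17, adjusted p 9.79e-11). Phc1 fell by 2.12 (SE 0.15, adjusted p 6.35e-10) and Kdm2b by 4.72 (SE 0.67, adjusted p 4.03e-06), from 73.0 to 117 CPM to between 1.81 and 8.13 CPM. Kdm2b overlaps Orai1 and the noncoding gene A930024E05Rik on the opposite strand, and whether the counting used strand was not given in the sources used here. Of the catalytic subunits, Ring1 was 2.10 to 5.60 CPM against 6.48 to 10.9 CPM (-1.17, SE 0.35, adjusted p 0.00552). Rnf2 was 172 to 256 CPM against 140 to 174 CPM and passed the adjusted p alone (0.50, SE 0.14, adjusted p 0.00351).

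Against the RA-treated cells of the same lines (4 libraries each), 44.9% of all genes were called (15.3% higher and 29.6% lower), and of the subunit genes Cbx2 (-2.52), Cbx7 (-5.35), Pcgf6 (-1.41) and Kdm2b (-4.11) were lower and Cbx8 (1.37, SE 0.42, adjusted p 0.0109) was higher. Bmi1 (0.88, SE 0.18, adjusted p 0.00065) and Phc1 (-0.49, SE 0.16, adjusted p 0.0149) passed the adjusted p alone. That of Phc1 rose above 0.05 within 72 h libraries (0.307), with no filter on low counts (0.266) and without WT-H3.3 (0.0832) or H3.3K27M (0.149) RA cells of 24 h, WT-H3.3 OPCs of 24 h (0.0516) or H3.3K27M OPCs of 72 h (0.0637). Cbx8 lost its call without either of the RA libraries of 24 h (adjusted p 0.0656 without WT-H3.3 and 0.0722 without H3.3K27M). Kdm2b was lower by 4.83 within 24 h and by 1.75 within 72 h libraries, and Cbx7 by 6.04 and by 4.17. The groups did not overlap for 7 of 9 genes, against 35.5% of all genes. In order of level, Cbx7 and Kdm2b of OPCs lay below all RA libraries, Bmi1 above all of them, and Rnf2 (172 to 256 CPM) below all 4 RA libraries (259 to 307 CPM) without passing (-0.26, adjusted p 0.189).

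The balance of Cbx2 to Cbx7, as log2 of the ratio of counts after adding 0.5 to each, summarizes these shifts within a library without scaling to its total. Where counts are few, the added 0.5 weighs on the ratio. The ratio sets 1 gene against another, so it can move with the library kit, and the correlation of CPM with length given above differed between the RA libraries of 24 and 72 h. The part of the kit in the ratio was not tested. In ESCs of 24 and 72 h without GSK343 it averaged -2.18 (SD 0.48, n = 12, range -3.46 to -1.64). The lowest value came from the library of 68378 counts, with 0 counts of Cbx2 and 5 of Cbx7, and without it the range was -2.40 to -1.64. In RA-treated cells it was -1.60, -1.67 and -2.42 at 24 h and -0.44, -0.08 and -0.77 at 72 h for the lines with WT, K27M and K27L H3.3. At 24 h the value with H3.3K27M lay within the range of these ESCs, that with WT-H3.3 just above its upper end, and that with H3.3K27L inside it only through the library of 68378 counts. All 72 h values lay above it. The pooled difference was 1.01 (exact two-sided permutation test, p = 0.00894, adjusted over the 2 ratio tests 0.00894), but within 24 h libraries it was 0.04 (exact p = 0.976) and within 72 h libraries 1.99 (exact p = 0.0238, the smallest that design allows). Without the library of 68378 counts the pooled difference was 0.90 (exact p = 0.0134).

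In OPCs the ratio was 0.48 and 0.20 with WT-H3.3 and 3.10 and 2.82 with H3.3K27M. All 4 values lay above the 8 ESC values (-2.40 to -1.64, mean -2.02, SD 0.31). The difference of 3.67 had an exact permutation p of 0.00404, the smallest this design allows, and an adjusted value of 0.00808. Within each Dox time the differences were 3.62 and 3.71, where the exact p cannot go below 0.133.

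**Figure D4:**
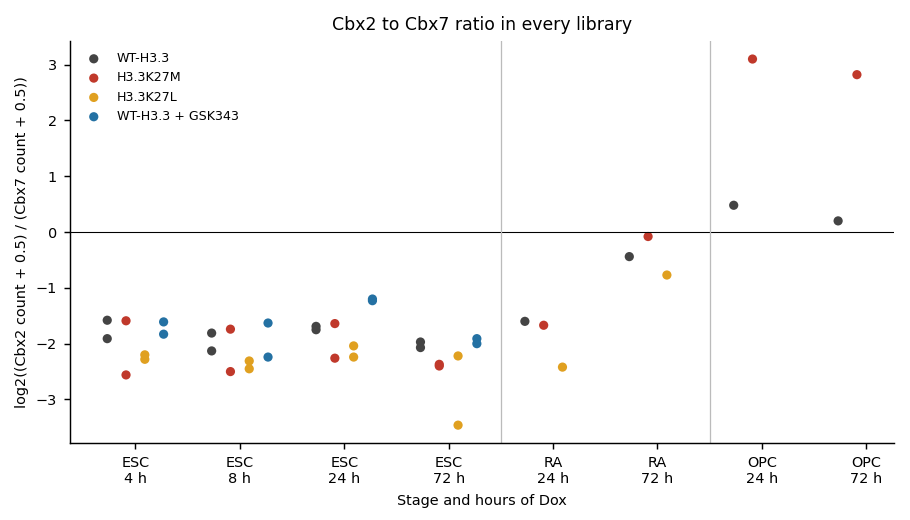
Log2 ratio of Cbx2 to Cbx7 counts (0.5 added to each) in every library, by stage and Dox time, coloured by line. ESC values without GSK343 lie between -3.46 and -1.64 at 24 and 72 h, those with GSK343 reach -1.20, RA values at 72 h between -0.77 and -0.08, and OPC values between 0.20 and 3.10.

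Within OPCs, H3.3K27M was compared with WT-H3.3 (2 against 2 libraries). Of the 9 genes 4 were called higher and none lower, where 28% of all genes were called (13% higher and 15% lower) and 76.7% did not overlap. The 4 were Cbx2, Phc1, Kdm2b and Ring1. The libraries are of different Dox times, and the error is the spread between them.

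Cbx2 was 24.5 and 19.0 CPM with H3.3K27M and 5.41 and 5.91 CPM with WT-H3.3 (1.95, SE 0.22, adjusted p 3.56e-05). Phc1 was 123 and 107 CPM against 45.9 and 46.5 CPM (1.33, SE 0.14, adjusted p 1.71e-05). Kdm2b was 8.13 and 5.66 CPM against 1.86 and 1.81 CPM (1.91, SE 0.34, adjusted p 0.000765). These 3 genes and Ring1 were among the 6 called lower in OPCs than in ESCs. For each of them the H3.3K27M levels lay between those of WT-H3.3 OPCs and of ESCs. Of the others called lower, Cbx7 was lower still with H3.3K27M (2.80 and 2.65 against 3.88 and 5.14 CPM), and Pcgf6 overlapped between the lines. Bmi1, which rose from ESCs to OPCs, was higher with H3.3K27M and so further from ESCs. Ring1 was 5.60 and 4.82 CPM against 2.99 and 2.10 CPM (1.03, SE 0.33, adjusted p 0.0232), and its call was lost with DESeq2 (adjusted p 0.0905), without WT-H3.3 72 h (0.172) and without H3.3K27M 24 h (0.0714).

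Bmi1 (0.72, SE 0.13, adjusted p 0.000742) and Rnf2 (-0.38, SE 0.13, adjusted p 0.0334) passed the adjusted p but not the fold threshold, and Rnf2 did not pass without WT-H3.3 24 h (0.266) or H3.3K27M 24 h (0.13). Cbx7 (-0.71, SE 0.34, adjusted p 0.103), Pcgf6 (0.15) and Cbx8 (0.06) did not pass. For Cbx8 the levels were 30.4 and 30.1 CPM with H3.3K27M and 30.4 and 28.0 CPM with WT-H3.3.

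Whether the effect of H3.3K27M differed between OPCs and ESCs was tested as an interaction, in which 6.48% of all genes were called (1.93% higher). Cbx2 (2.20, SE 0.45, adjusted p 0.00478), Phc1 (1.40, SE 0.28, adjusted p 0.00406) and Bmi1 (1.35, SE 0.32, adjusted p 0.0134) passed. With no filter on low counts Phc1 (adjusted p 0.193) and Bmi1 (0.299) did not. For Bmi1 the difference was -0.64 in ESCs at 24 and 72 h and 0.72 in OPCs. Without WT-H3.3 OPCs of 24 h, or with libraries of 24 h alone, 1 of these 3 genes was called. Kdm2b (1.98, SE 1.10, adjusted p 0.38) did not pass, but did with a term for Dox time in each stage (1.97, SE 0.42, adjusted p 0.00117), where 2608 genes were called in place of 1032. Bmi1 lost its call when any 1 of the 4 OPC libraries was left out (adjusted p 0.0579 to 0.0927).

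**Figure D5:**
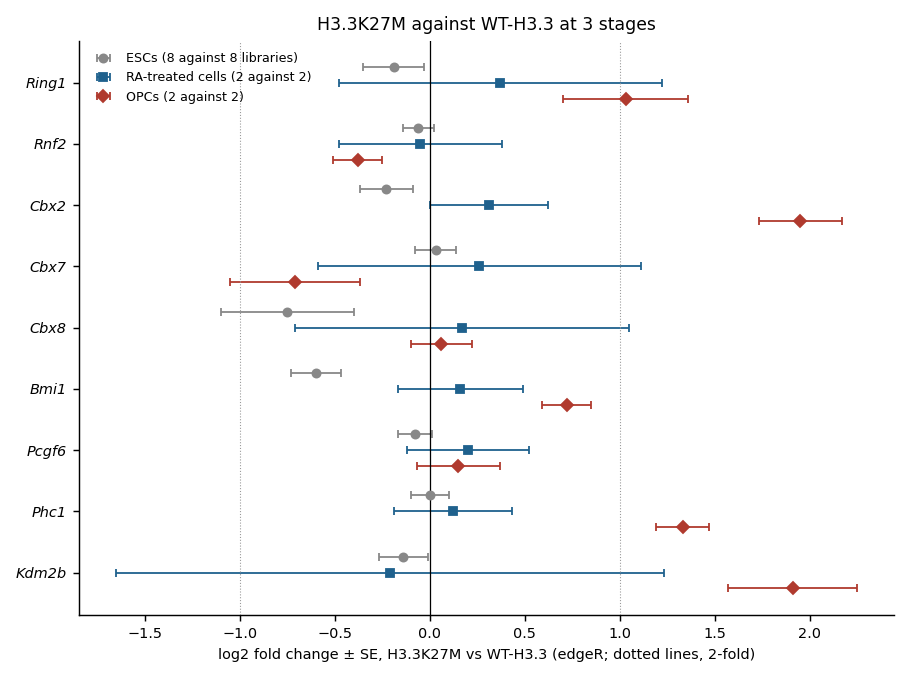
Log2 fold change of H3.3K27M against WT-H3.3 for each PRC1 subunit gene in ESCs over all Dox times, in RA-treated cells and in OPCs; bars are 1 SE from edgeR. In OPCs Cbx2, Kdm2b, Phc1 and Ring1 lie at 1.03 to 1.95, and in ESCs no gene passed the test.

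Markers of cell types also differed between these OPC libraries. The 7 OPC markers, none at 0, summed to 1620 to 1740 CPM with H3.3K27M and to 480 to 506 CPM with WT-H3.3. The 8 fibroblast markers, none at 0, summed to 21.9 to 26.8 CPM against 537 to 603 CPM, and the 7 extraembryonic endoderm markers to 15.2 to 19.7 CPM against 105 to 143 CPM. Neural progenitor markers (2960 to 4040 against 2910 to 3260 CPM) overlapped. The 6 astrocyte markers were 1240 to 1620 against 1050 to 1080 CPM and the 6 neuron markers 230 to 289 against 167 to 185 CPM. The 9 ESC markers summed to 20.8 to 21.1 CPM with H3.3K27M, where 5 of them were at 0. With WT-H3.3 they summed to 111 to 120 CPM, where 4 were at 0. The part of these cell type markers in the differences between lines was not tested.

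Other PRC1 subunits (11 genes: Cbx6, Pcgf1, Pcgf2, Pcgf3, Pcgf5, Phc2, Phc3, Scmh1, Scml2, Rybp and Yaf2) were examined in the same fits. From ESCs to RA-treated cells 4 of 11 were called higher and 3 lower, where 25.8% of all genes were called higher and 20.1% lower, with a median change of 0.72 against 0.04 for all genes. Pcgf5 (2.54, SE 0.17, adjusted p 2.42e-10), a PCGF of a variant complex, Phc2 (1.79, SE 0.12, adjusted p 2.82e-10), a paralog of Phc1, Yaf2 (2.06, SE 0.17, adjusted p 4.39e-09) and Scmh1 (1.48, SE 0.16, adjusted p 1.59e-07) rose. Phc2 was 88.7 to 148 CPM in RA-treated cells and 21.9 to 35.6 CPM in ESCs, the opposite direction to Phc1.

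From ESCs to OPCs, 4 of 11 were called higher and 3 lower, a share near the 66% of all genes called. Phc2 (2.63, SE 0.14, adjusted p 1.38e-11), Phc3 (3.09, SE 0.22, adjusted p 3.71e-10), Yaf2 (2.30, SE 0.20, adjusted p 6.25e-09) and Cbx6 (2.67, SE 0.33, adjusted p 7.18e-07) had the lowest adjusted p. Phc3 was 348 and 379 CPM in WT-H3.3 OPCs and 116 and 119 CPM in H3.3K27M OPCs, against 16.1 to 34.5 CPM in ESCs. Between OPCs and RA-treated cells 2 were called higher and 4 lower (44.9% of all genes were called), Phc3 (1.98), Cbx6 (1.89), Pcgf2 (-1.32) and Pcgf5 (-1.13) with the lowest adjusted p.

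H3.3K27M OPCs had 2 of the 11 genes called lower than WT-H3.3 OPCs and none higher, where 15% of all genes were lower and 13% higher. Phc3 fell by 1.62 (SE 0.13, adjusted p 2.37e-06) and Pcgf5, at 11.1 to 11.3 CPM against 34.9 to 37.1 CPM, by 1.67 (SE 0.18, adjusted p 2.06e-05). So Phc1 was higher and Phc3 lower in the same libraries. Between RA libraries of 72 and 24 h, Cbx6 rose by 2.06 (SE 0.13, adjusted p 4.59e-08). Rybp, which replaces CBX in variant complexes, was 49.8 to 60.4 CPM at 24 h and at 0, 0 and 1.79 CPM at 72 h, and 1.14 to 1.53 CPM in OPCs. The correlation of CPM with exonic length also differed between these RA times, and the part of it or of the library kit in the Rybp levels was not tested. No gene of this list was called in ESCs for either mutant or GSK343.

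Of 19 genes whose products join variant PRC1 complexes, 18 were tested. From ESCs to RA-treated cells 1 was called higher and 5 lower (median -0.80), where 45.9% of all genes were called. From ESCs to OPCs 4 were called higher and 8 lower (median -0.55, against -0.22 for all genes), about the share of all genes called (66%). E2f6, a repressor of the complex that holds Pcgf6, rose in both comparisons (1.77, SE 0.22, adjusted p 1.33e-06, and 2.79, SE 0.26, adjusted p 2.26e-08). L3mbtl2, of the same complex, fell in both (-1.65, SE 0.22, adjusted p 2.56e-06, and -2.36, SE 0.28, adjusted p 3.95e-07). Hdac1, a histone deacetylase, fell by 2.07 and by 3.53. Usp7 fell by 1.21 in RA-treated cells (adjusted p 7.21e-06) and Fbrsl1 by 1.87 in OPCs (adjusted p 2.13e-06).

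Between OPCs and RA-treated cells E2f6 (1.06) was called higher and Bcor (-1.16) and Hdac1 (-1.40) lower, where 44.9% of all genes were called. Between RA libraries of 72 and 24 h, 4 partners were called higher and 3 lower (42.2% of all genes were called), among them Csnk2a1 (1.61), Max (1.51), Wdr5 (1.37) and E2f6 (1.41). In OPCs with H3.3K27M, where 28% of all genes were called, Cbx3, a heterochromatin protein gene, was the 1 partner called (1.55, SE 0.26, adjusted p 0.00061). It was at 23.5 and 44.1 CPM against 10.9 and 12.3 CPM.

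The list of 7 H2A deubiquitinase and cofactor genes, whose products oppose PRC1, was examined last. None was called between RA-treated cells and ESCs (45.9% of all genes were), where 4 passed the adjusted p alone, all lower. In OPCs against ESCs Asxl1 (-1.07, SE 0.23, adjusted p 0.000308) and Bap1 (-1.07, SE 0.34, adjusted p 0.00766), which form the BAP1 enzyme complex, were called lower, where 36.6% of all genes were. Between RA libraries of 72 and 24 h Bap1 fell by 1.17 (SE 0.13, adjusted p 7.6e-06). None was called between the lines in OPCs, where 28% of all genes were.

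As a description across the 41 libraries with at least 1000000 counts, the genes whose log2(CPM + 0.5) followed each subunit gene most closely among 14228 genes were found by Pearson's r. The points share stage, library and depth, and no p is given. Kdm2b was followed by Chaf1a (r = 0.989), Khsrp (0.987) and Morc2a (0.986), Pcgf6 by Gm11019 (0.986), Clp1 (0.986) and Mtf2 (0.984), and Cbx7 by Phf17 (0.981), Sall4 (0.976) and Zfp568 (0.974). Mtf2 encodes a PRC2 accessory protein and Sall4 a factor of pluripotent cells. Phc1 was followed by Bcat1 (0.948) and Bmi1 by Tshz2 (0.945), Ndn (0.937) and Hoxa7 (0.936), a HOX gene. Cbx8 was nearest to 5033414D02Rik (0.946), Cbx2 to Lin28b (0.917), Ring1 to Ube2m (0.889) and Rnf2 to Bach2 (0.884).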

How the data were processed

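RNA was sequenced in 42 libraries (32 ESC, 6 RA, 4 OPC). The authors aligned single-end reads to mm9 with STAR 2.7.1 (at most 10 mismatches) and deposited raw counts per gene (55471 genes, of which 32589 matched the mm9 annotation). Libraries were made with a QuantSeq 3′ or a KAPA mRNA kit, and the kit of each library, the counter and its use of strand are not given in the sources used here. A 3′ kit and a whole-transcript kit weight genes differently by length, so CPM levels were compared only within a gene, and the Cbx2 to Cbx7 ratio, which sets 1 gene against another, can move with the kit. The OPC columns of 72 h give replicate 2 where the only sample title of each such group gives replicate 1, so these columns were assigned by line and Dox time.

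Nothing was aligned again. edgeR 4.0.16 in R 4.3.3 gave quasi-likelihood tests of each difference (TMM, filterByExpr, 1 mean per group). The 1435 annotated genes of chromosome 8 were left out, as the study's methods do because of its potential duplication. P-values were adjusted by Benjamini-Hochberg over all genes tested, and a call needed an adjusted p under 0.05 and more than 2-fold change. All 9 subunit genes passed the low-count filter in every main comparison. ESC fits used all 32 libraries, with a mean for each line and time. Dox times served as replicates in RA and OPC groups, as the study's methods pool both times in RA. Alternatives were DESeq2 1.42.0, its size factors, library totals, other filters, chromosome 8 kept, a replicate block, Dox time as a term, single Dox times and leaving out each library in turn. CPM are counts over the library total. Exact tests ran in SciPy 1.17.1 and figures in Matplotlib 3.10.9 (Python 3.11.15, pandas 2.3.3, NumPy 2.4.6). The code was tested on simulated data.

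Replicate numbers pair WT-H3.3 and H3.3K27M ESCs, since deviations of same-numbered libraries correlated at 0.607 to 0.716 at all 4 times over 8345 genes. For H3.3K27L these were -0.602, -0.708, -0.684 and 0.259 at 4, 8, 24 and 72 h and for GSK343 -0.469 to 0.584, so same-numbered libraries were not taken as pairs. The methods state that replicates were taken weeks apart, and nothing gives separate clones, so p-values measure only the spread between these libraries. No 2 libraries were copies (chi-square of at least 1.85 per gene). The subunit genes and all lists were chosen with earlier results of these data known. Of the other PRC1 subunits, 1 gene is not reported here. Genes of other lists were named as up to 4 called genes of lowest adjusted p per comparison.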

Additional observations from a re-analysis of the deposited data

Results flagged for a closer look

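The lowest H3.3K27L ESC library, 72 h replicate 2 with 68378 counts, stood apart from the other 7 of its line for 3 genes. Ring1 was at 0 CPM (next lowest 9.03), Cbx2 at 0 CPM (next lowest 32.7) and Cbx7 at 73.1 CPM (next lowest 171). In that library 3 counts, the floor that a count of 0 allows, equal 43.9 CPM, which is above the next lowest level of Ring1 and of Cbx2. Among the 36 groups of 8 libraries examined, 3 stood apart this way, and chance gives about 1 in 20. Without this library no subunit gene changed its call in the comparisons of H3.3K27L ESCs at the 2-fold threshold.

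For 3 genes the effect of H3.3K27M differed between OPCs and ESCs, as log2 differences of 2.20 for Cbx2 (adjusted p 0.00478), 1.35 for Bmi1 (0.0134) and 1.40 for Phc1 (0.00406) in edgeR. With no filter on low counts Bmi1 (adjusted p 0.299) and Phc1 (0.193) did not pass, and Bmi1 also lost its call without any 1 OPC library. For 4 genes the change from ESCs to RA-treated cells differed between 72 and 24 h of Dox: Ring1 by -1.22 (adjusted p 0.00947, and 0.0511 without the H3.3K27M RA library of 72 h), Cbx7 by -1.83, Cbx8 by 1.82 and Kdm2b by -3.11. In that comparison 42.4% of all genes were called. Dox time, time in RA and possibly library batch or library kit cannot be told apart there.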

How the results depend on the processing

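For the 42 subunit gene differences past the adjusted p, 1031 of 1108 values under the alternatives kept their direction and stayed past it, 77 lost it and 0 reversed. Of 5290 values for the 156 others, 35 passed, in 11 differences, among them Bmi1 with H3.3K27M in ESCs, Kdm2b in RA-treated cells against ESCs and Ring1 in OPCs against RA-treated cells. Of 735 counts of subunit genes called, in 22 comparisons, 730 stayed within 1.5 times the main count. Most of these comparisons had a main count of 0, where a count of 0 under an alternative was taken as the same. For those the tally says little. With no fold threshold, 1 subunit gene instead of 0 passed in ESCs between H3.3K27L and WT-H3.3, and 1 between both mutants. Leaving out a library gave 0 to 1 for H3.3K27M against WT-H3.3 in ESCs (1 without H3.3K27M 4 h replicate 1) and 1 to 3 for the interaction of H3.3K27M with OPC stage (1 without WT-H3.3 24 h), where 24 h libraries alone gave 1. The Cbx2 to Cbx7 difference was 0.04 in 24 h libraries of RA-treated cells (exact p 0.976), and in OPCs 3.62 and 3.71 within 24 and 72 h (exact p 0.133, the smallest possible).

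The replicate block raised all genes called for H3.3K27M in ESCs from 2 to 24, for H3.3K27L at 24 and 72 h from 77 to 154 and for late against early WT-H3.3 from 10 to 18; subunit genes called stayed at 0. For H3.3K27L, where the numbers do not pair the libraries, Bmi1 had an adjusted p of 0.036 with the block. The numbers of H3.3K27L crossed, an alternative added after the data were seen, gave 522 calls against 487 and for Bmi1 0.0451. In OPCs, with Dox time as the replicate block, 3531 genes were called against 3501. Without a filter on low counts 159 genes were called for H3.3K27M in ESCs and 769 for H3.3K27L, and with at least 10 counts in every library of at least 1000000 counts 0 and 81. Leaving out a library moved these counts over 0 to 133 and 120 to 664, and that of the OPC interaction over 459 to 1213 (1032 with all libraries, 2608 with a term for Dox time in each stage). The causes were not tested. Depth limits Cbx8 in ESCs, Cbx7 and Kdm2b in OPCs and all genes in the lowest library. It also limits Ring1 in RA-treated cells of 72 h (11 to 15 counts) and in OPCs (22 to 42 counts).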
